A study of Sus scrofa with 7 samples.

Results

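The genes described here are the porcine genes of MHC class I antigen presentation and of the interferon response, compared between porcine extra-embryonic endoderm (pXEN) cells, naïve-like ESCs (nESCs) and primed ESCs (pESCs). The rows were found by name. Every row of the gene tables whose name starts with SLA-, the prefix of the swine leukocyte antigens, was taken, together with the rows of 49 named genes of antigen presentation, interferon signalling, sensing of viral RNA and antiviral defence. Of these 49 names, 37 were found. The members came to 58 rows with 56 symbols, out of 29510 rows in all, and 19 of the 58 were SLA rows. The names TAP1, TAP2, PSMB9, PSMB10, IFNAR1, IFNGR2, IFITM2, IFITM3, RSAD2, DDX58, BST2 and USP18 matched no row, and 6 of these 12 genes were found by identifier under another name or none.

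RNA was sequenced from 3 pXEN lines, 2 nESC lines and 2 pESC lines, with 1 library per line. The pXEN lines were derived from the inner cell masses of parthenogenetic blastocysts, grew on mouse embryonic fibroblasts in LCDM medium with hLIF, CHIR99021, (S)-(+)-dimethindene maleate, Y27632 and minocycline hydrochloride, and were at passages 26, 26 and 23. The nESC lines, at passages 21 and 22, also came from inner cell masses and were kept on mouse embryonic fibroblasts in LBX medium with FGF, hLIF, PD0325901, CHIR99021, SB431542 and doxycycline. The pESC lines, both at passage 20, were converted from naïve-like cells and grew on STO feeder cells with activin A, bFGF, EGF and hLIF. The labels name no treatment with interferon and no infection. Cell type and medium changed together in every comparison, and the feeder cells, mouse embryonic fibroblasts for pXEN cells and nESCs, also changed in comparisons with pESCs. The parts of these in any difference cannot be told apart.

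MHC class I molecules carry peptides from inside the cell to its surface, where cytotoxic T cells and natural killer cells read them. Each consists of a polymorphic heavy chain and the invariant chain β2-microglobulin (B2M). The peptides are cut by the proteasome, pumped into the endoplasmic reticulum by the TAP transporter and loaded with the help of tapasin (TAPBP). Interferons raise the expression of this machinery. Type I interferons act through IFNAR1 and IFNAR2 with the kinases JAK1 and TYK2 and through a complex that holds STAT2 and IRF9. Interferon gamma acts through IFNGR1 and IFNGR2 and through IRF1. Pluripotent cells are known for low MHC class I and for a weak response to interferon.

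Between 10408164 and 12995720 reads were counted per library. The cell type labels held for the endoderm list, whose 8 marker genes were called higher in pXEN cells against each ESC type. Library pXEN 2 stood apart from pXEN 1 and pXEN 3. The summed level of the 12 rows of fibroblast markers was 248 FPKM in pXEN 2 against 18.4 and 21.1 FPKM in pXEN 1 and pXEN 3, between 36.0 and 42.7 FPKM in nESCs and between 58.9 and 91.9 FPKM in pESCs. FPKM is the number of fragments scaled by gene length and library total. Most of that sum in pXEN 2 was collagen, with 144 FPKM of COL1A1, 77.5 FPKM of COL3A1 and 21.1 FPKM of COL1A2, while TWIST1, TWIST2 and PRRX1 were each below 1 FPKM there. COL3A1, a fibrillar collagen, had 20, 4251 and 203 counts in pXEN 1, 2 and 3. The pluripotency factor SOX2 had 0, 30 and 0 counts there, and the 14 rows on chromosome Y had 1, 38 and 3 counts, with 11 and 4 in nESCs and 0 and 1 in pESCs. In FPKM, these rows summed to 1.65 in pXEN 2 and to 2.68 in nESC 1. SOX2 reached 1633 and 1940 counts in nESCs and 2452 and 2729 in pESCs, but NANOG (0 and 2 counts), UTF1 (0 and 1) and TDGF1 (0 and 0) were nearly absent from nESCs. Of the 8 pluripotency markers, 3 were called higher and 3 lower in pXEN cells than in nESCs, and 1 higher and 7 lower than in pESCs. The 8 rows of blood and immune cell markers summed to between 2.39 and 4.02 FPKM over the 7 libraries. Called values of members that moved by over 1.5 times without pXEN 2 are also given without it below.

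Of the 58 members, 32 had enough counts to be tested. Of the other 26 rows, 10 had no count in any library and 16 had some, and 16 of the 26 never exceeded 3 counts, the floor of detection used here, in any library. A difference was called at an adjusted p below 0.05 in edgeR's quasi-likelihood test over all 17447 genes tested, and its size is given as a log2 fold change (log2FC) with its standard error (SE). Against nESCs, 6 members (18.8%) were higher and 11 (34.4%) lower in pXEN cells, where 28.3% and 26.2% of all genes tested were higher and lower. Against pESCs, 8 members (25.0%) were higher and 12 (37.5%) lower, with 23.9% and 24.4% of all genes. Between the ESC types, 6 members (18.8%) were higher and 4 (12.5%) lower in pESCs, with 19.0% and 13.3% of all genes. The shares called lower in pXEN cells were above those of all genes, and the other shares were near or below them. The members' median log2FC was -0.28 in pXEN cells against each ESC type, and that of all genes tested was 0 against nESCs and -0.01 against pESCs. Both pXEN comparisons use the same 3 pXEN libraries.

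**Figure D1:**
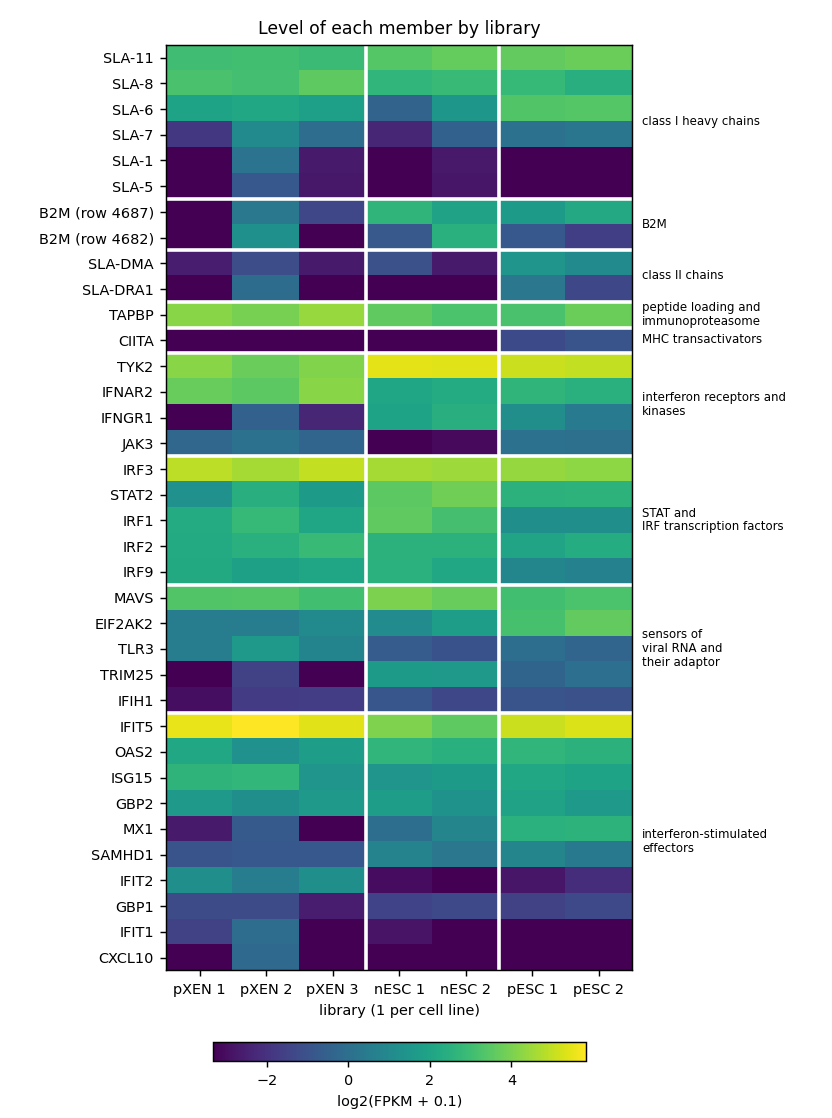
Level of the 36 members that reached 10 counts in at least 1 library, as log2(FPKM + 0.1), with 1 column per library and the members grouped by role. IFIT5, TYK2 and IRF3 are the brightest rows, and SLA-1, SLA-5, IFIT1 and CXCL10 are brightest in the pXEN 2 column.

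Of the class I heavy chains, SLA-11, SLA-8, SLA-6 and SLA-7 had counts in every library, while the classical SLA-1 had counts mainly in pXEN 2. The pig's classical class I genes, which present peptides to T cells, are SLA-1, SLA-2 and SLA-3, and its nonclassical genes are SLA-6, SLA-7 and SLA-8. SLA-1 (chromosome 7, 24748105 to 24751642) had 0, 18 and 1 counts in pXEN 1, 2 and 3, 0 and 1 in nESCs and 0 and 0 in pESCs. SLA-5 (chromosome 7, 24683605 to 24687412) had 0, 10 and 1 counts in the pXEN lines, 0 and 1 in nESCs and 0 and 0 in pESCs. Outside pXEN 2, both genes were thus at or below 1 count in each library. Neither had enough counts to be tested. A row named TMP-SLA-2, no member by name, had 0, 30 and 2 counts in the pXEN lines, which is 5.08 FPKM in pXEN 2, and none in the ESC libraries. The row TMP-SLA-3 had 0, 5 and 0 counts in the pXEN lines, 1 and 0 in nESCs and 2 and 2 in pESCs. Coordinates are those of the deposited tables, and the genome build that their processing notes name is Sscrofa10.2.

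SLA-11 was the most expressed heavy chain row in the ESC libraries and was lower in pXEN cells, where SLA-8 was above it in each library. It had 8.01, 8.27 and 7.47 FPKM in pXEN 1, 2 and 3, 10.6 and 12.4 FPKM in nESC 1 and 2, and 12.2 and 13.7 FPKM in pESC 1 and 2. The pXEN libraries lay below the 4 ESC libraries. The listed interval of SLA-11 overlaps TRIM39 on the other strand, so its counts may not all belong to SLA-11. The log2FC was -0.55 (SE 0.14, adjusted p = 0.0120) against nESCs and -0.70 (SE 0.14, adjusted p = 0.00449) against pESCs, a 1.46-fold and a 1.62-fold lower level. SLA-8 went the other way against pESCs. Its levels were 9.02, 8.38 and 11.6 FPKM in pXEN cells, 6.43 and 7.20 FPKM in nESCs and 6.83 and 5.40 FPKM in pESCs. It was 1.59-fold higher in pXEN cells than in pESCs (log2FC 0.67, SE 0.19, adjusted p = 0.0213). Against nESCs the difference missed the threshold (log2FC 0.50, SE 0.19, adjusted p = 0.0559), although the groups did not overlap. The listed interval of SLA-8 is 27209603 to 27630394 on chromosome 7 and overlaps 36 other rows, SLA-6 and SLA-7 among them, so its counts may not all belong to 1 gene.

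SLA-6 separated the ESC types. It had 10.01 and 10.6 FPKM in pESCs, 0.660 and 2.74 FPKM in nESCs and 3.88, 4.23 and 3.47 FPKM in the pXEN lines. Each pXEN library lay between the nESC and the pESC libraries. SLA-6 was 6.01-fold higher in pESCs than in nESCs (log2FC 2.59, SE 0.53, adjusted p = 0.00796), a call that held in every alternative run. Its size rested on the nESC lines, with a log2FC of 1.89 without nESC 1 and 3.94 without nESC 2. In pXEN cells it was 2.66-fold lower than in pESCs (log2FC -1.41, SE 0.44, adjusted p = 0.0302), which was lost without pESC 1 (adjusted p = 0.109), pESC 2 (0.132), pXEN 1 (0.0722) or pXEN 3 (0.0798). Against nESCs it was 2.26-fold higher but missed the threshold (log2FC 1.18, SE 0.49, adjusted p = 0.0761), which it passed with DESeq2 (0.0431), with limma on log2(FPKM + 0.1) (0.0497) or log2(FPKM + 1) (0.0411) and without nESC 2 (0.00184). SLA-7 was low and variable, with 0.180, 1.95 and 0.860 FPKM in the pXEN lines, 0.0975 and 0.607 FPKM in nESCs and 0.984 and 1.097 FPKM in pESCs, and it was called in no comparison (adjusted p from 0.235 to 0.980).

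The B2M counts were low in pXEN cells. The tables list B2M in 2 neighbouring rows of chromosome 1. The first (ENSSSCG00000004687, 141436332 to 141517774) had 0, 17 and 4 counts in pXEN 1, 2 and 3, 95 and 55 counts in nESCs and 49 and 77 counts in pESCs. The second (ENSSSCG00000004682, 141532505 to 141538781) had 0, 27 and 0 counts, 6 and 64 counts, and 6 and 3 counts. The interval of the first row overlaps an unnamed row on the other strand, so its counts may not all belong to B2M. In the first row every pXEN library lay below every ESC library. In pXEN 1, at a depth of 10408164 counts, neither row had a read, which allows at most 3 counts in each row. The levels of the first row were 0.485 ± 0.609 FPKM (SD, n = 3) in pXEN cells, 4.96 ± 1.75 FPKM (n = 2) in nESCs and 3.79 ± 1.02 FPKM (n = 2) in pESCs.

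The first B2M row was 9.78-fold lower in pXEN cells than in nESCs (log2FC -3.29, SE 0.86, adjusted p = 0.0121) and 7.43-fold lower than in pESCs (log2FC -2.89, SE 0.86, adjusted p = 0.0243). Without pXEN 2 the log2FC was -4.97 (adjusted p = 0.000488) against nESCs and -4.58 (adjusted p = 0.000991) against pESCs. The second row was called in neither comparison (adjusted p = 0.304 and 0.606). With both rows summed, a step added after the data were seen, the pXEN libraries had 0, 44 and 4 counts, the nESC libraries 101 and 119, and the pESC libraries 55 and 80. The pXEN libraries still lay below the ESC libraries, but neither difference passed the threshold (log2FC -2.69, adjusted p = 0.0556, and log2FC -1.83, adjusted p = 0.181). The deposited counts do not show how reads that fit both rows were treated.

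Of the peptide-loading members, TAPBP was higher in pXEN cells and the immunoproteasome subunit PSMB8 was not measurable. TAPBP, whose product tapasin holds empty class I molecules at the transporter, had 18.1, 15.2 and 21.0 FPKM in the pXEN lines, 12.0 and 9.36 FPKM in nESCs and 9.01 and 13.4 FPKM in pESCs. The pXEN libraries lay above the others. It was 1.68-fold higher than in nESCs (log2FC 0.75, SE 0.23, adjusted p = 0.0265) and 1.62-fold higher than in pESCs (log2FC 0.69, SE 0.23, adjusted p = 0.0394). These calls rested on narrow margins. The first was lost without nESC 2 (adjusted p = 0.164), pXEN 3 (0.0765), pXEN 1 (0.0588) or nESC 1 (0.0506), and the second without pESC 1 (0.258), pXEN 3 (0.109), pXEN 1 (0.0831) or nESC 1 (0.0509). PSMB8 is listed in 2 rows, of which one had 3 counts in pESC 1 and 0 elsewhere and the other had no count.

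The transporter rows, which carry the name TAP and so are no members by name, were lower in pXEN cells in 3 of 4 cases. The row identified as TAP2 (chromosome 7, 29257059 to 29268365) had 3, 2 and 0 counts in the pXEN lines, 26 and 42 in nESCs and 30 and 24 in pESCs. Its log2FC was -4.12 (SE 0.75, adjusted p = 0.00220) against nESCs and -3.64 (SE 0.76, adjusted p = 0.00507) against pESCs. A second TAP row (ENSSSCG00000025173) had 11, 1 and 8 counts, 87 and 53 counts, and 44 and 41 counts, with a log2FC of -3.20 (adjusted p = 0.00420) and -2.34 (adjusted p = 0.0210). Another TAP row (ENSSSCG00000020893) had 1, 2 and 0 counts, 19 and 4 counts, and 13 and 7 counts, with a pooled ratio of nESCs to pXEN cells of 10.5 (95% counting interval 3.16 to 54.4, adjusted p = 0.0281) and of pESCs to pXEN cells of 8.21 (2.44 to 43.2, adjusted p = 0.0491). The row identified as TAP1 had 6, 2 and 0 counts, 5 and 6 counts, and 8 and 16 counts and was not tested. The row of PSMB9, named LMP2, had 0 counts in each pXEN library and at most 7 in an ESC library. The TAP, PSMB8 and LMP2 genes are listed in 2 copies on chromosome 7, so their reads may be split between copies.

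**Figure D2:**
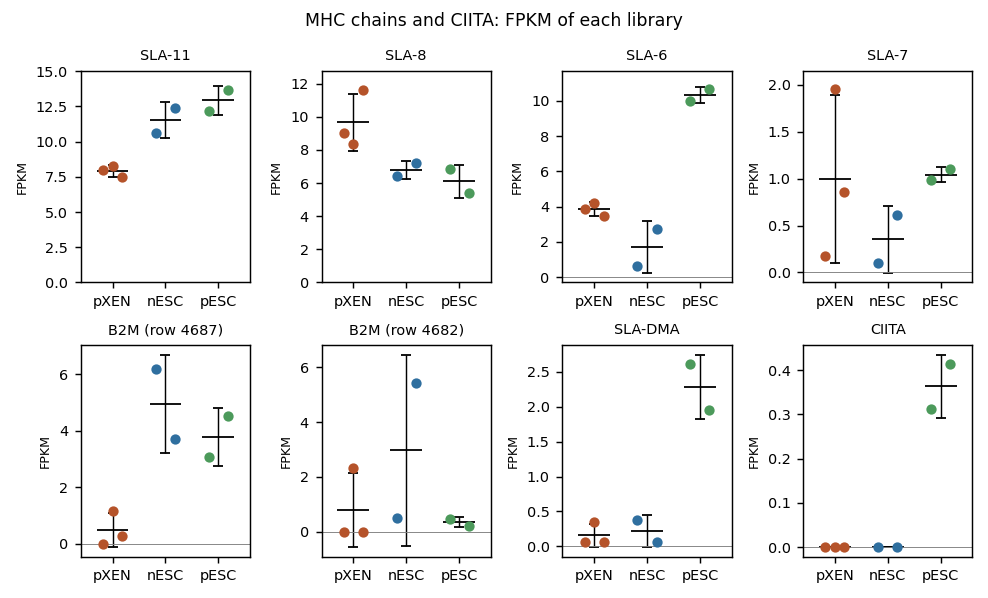
FPKM of the class I heavy chains with the most counts, both B2M rows, SLA-DMA and CIITA. Points are libraries, horizontal lines are group means and bars are ± 1 SD (n = 3 pXEN, 2 nESC and 2 pESC lines). The B2M row ENSSSCG00000004687 is low in the pXEN libraries, and SLA-6, SLA-DMA and CIITA are highest in the pESC libraries.

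The class II genes, which in the body are mostly restricted to antigen-presenting cells, were low in each library. Their 13 rows summed to 5.64 and 3.32 FPKM in pESCs, 0.818 and 1.19 FPKM in nESCs and 0.0669, 2.14 and 0.0599 FPKM in pXEN 1, 2 and 3. Over 3 counts were found for 4 of these rows in each pESC library and in pXEN 2, for 1 in each nESC library and for 0 in pXEN 1 and pXEN 3. CIITA, the master regulator of class II transcription, had 12 and 17 counts in pESC 1 and 2 and 0 counts in each of the other 5 libraries. It was at least 4.26-fold higher in pESCs than in nESCs (adjusted p = 0.0195) and at least 3.62-fold higher than in pXEN cells (adjusted p = 0.00806), with 3 counts per library taken as the limit of a count of 0. SLA-DMA, a chain of the DM molecule that edits class II peptides, had 50 and 40 counts in pESCs, 7 and 1 in nESCs and 1, 6 and 1 in the pXEN lines. Its levels were 2.61 and 1.95 FPKM in pESCs, 0.380 and 0.0564 FPKM in nESCs and 0.0669, 0.344 and 0.0599 FPKM in the pXEN lines. It was 9.99-fold higher in pESCs than in nESCs (log2FC 3.32, SE 0.88, adjusted p = 0.0228) and 13.5-fold lower in pXEN cells than in pESCs (log2FC -3.76, SE 0.80, adjusted p = 0.00557). The pooled ratio of pESCs to pXEN cells was 35.9 (95% counting interval 9.64 to 301) without pXEN 2, and that of pESCs to nESCs was 39.8 (6.97 to 1590) without nESC 1. Without nESC 2 the log2FC between the ESC types was 2.55.

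The other class II rows had few counts, apart from a DM row that is no member by name. This row, DMB, identified as SLA-DMB, had 67 and 85 counts in pESCs, 1 and 2 in nESCs and 1, 3 and 7 in the pXEN lines. Its pooled ratio of pESCs to nESCs was 45.8 (95% counting interval 15.4 to 225, adjusted p = 0.00159), and its log2FC in pXEN cells against pESCs was -4.06 (adjusted p = 0.000848). SLA-DRA1 had 18 and 5 counts in pESCs, 0 and 0 in nESCs and 0, 12 and 0 in the pXEN lines, which is 0.834 FPKM in pXEN 2 and 1.14 and 0.297 FPKM in pESCs, and was not called (adjusted p from 0.118 to 0.480). SLA-DQA1 had 8 and 6 and SLA-DQB*G07 7 and 6 counts in pESCs, with 5 and 4 counts in pXEN 2 and 0 in the other 4 libraries. SLA-DOB2 had 2 and 5 counts in nESCs and none elsewhere. SLA-DRB*K07G had 2 counts in pXEN 2 and none elsewhere. SLA-DQB2 and SLA-DRB2 had at most 2 counts in a pESC library and none elsewhere, and SLA-DRB5, SLA-DOB, SLA-DYB, SLA-DRB4 and SLA-DRB3 had none. NLRC5, the corresponding regulator of class I genes, also had none, but its row is a short interval on an unplaced scaffold. The call of CIITA between the ESC types was lost without pESC 1 (adjusted p = 0.117), nESC 1 (0.0983) or nESC 2 (0.0872) and with DESeq2 (0.0792), and that of SLA-DMA without pESC 1 (0.131), nESC 2 (0.121) or pESC 2 (0.0888). The endothelial receptor TEK had 859 and 1098 counts in pESCs and at most 6 elsewhere, while the endothelial genes PECAM1 and KDR were below 1 FPKM in each library. The fibroblast marker DCN had 344 and 780 counts in pESCs, 0 and 0 in nESCs and 1, 24 and 6 in the pXEN lines. Of the 9 fibroblast marker rows tested, 1 was higher and 1 lower in pESCs than in nESCs. The part of other cell types in the class II counts was not tested.

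Of the receptor chains measured, 1 of each interferon type, IFNAR2 was higher and IFNGR1 lower in pXEN cells. IFNAR2, a chain of the type I receptor, had 12.97, 11.5 and 18.4 FPKM in the pXEN lines, 4.14 and 4.79 FPKM in nESCs and 6.26 and 5.43 FPKM in pESCs. It was 3.18-fold higher than in nESCs (log2FC 1.67, SE 0.31, adjusted p = 0.00250) and 2.45-fold higher than in pESCs (log2FC 1.30, SE 0.30, adjusted p = 0.00858). The second of these calls was lost without pESC 2 (adjusted p = 0.0706), and the IFNAR2 row spans only 28 to 819 of an unplaced scaffold. IFNGR1, the ligand-binding chain of the interferon gamma receptor, had 0, 13 and 2 counts in pXEN 1, 2 and 3, 87 and 112 in nESCs and 51 and 31 in pESCs. The groups did not overlap in either gene. IFNGR1 was 18.1-fold lower in pXEN cells than in nESCs (log2FC -4.18, SE 0.85, adjusted p = 0.00389) and 6.79-fold lower than in pESCs (log2FC -2.76, SE 0.87, adjusted p = 0.0304). Without pXEN 2, whose removal leaves 2 counts in pXEN cells, the pooled ratio of nESCs to pXEN cells was 87.7 (95% counting interval 24.0 to 729, adjusted p = 9.48e-05) and that of pESCs was 32.7 (8.76 to 274, adjusted p = 0.000715), while the call against pESCs was lost without pESC 1 (0.156), pXEN 3 (0.0811), pESC 2 (0.0621), nESC 2 (0.0560) or nESC 1 (0.0540). In these bulk samples, fewer cells that express a gene and less RNA per cell cannot be told apart.

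TYK2, the kinase bound to IFNAR1, was the most expressed receptor-associated member and was lower in pXEN cells. It had 18.2, 13.05 and 17.1 FPKM in the pXEN lines, 43.5 and 41.4 FPKM in nESCs and 34.3 and 31.2 FPKM in pESCs. It was 2.65-fold lower than in nESCs (log2FC -1.40, SE 0.14, adjusted p = 0.000104) and 2.02-fold lower than in pESCs (log2FC -1.02, SE 0.14, adjusted p = 0.000756), and both calls held in every alternative run. Of its partners, which were listed as pathway genes beside the members, JAK1 had 7.73, 6.47 and 3.98 FPKM in the pXEN lines, 9.38 and 8.31 FPKM in nESCs and 3.33 and 2.53 FPKM in pESCs, and was higher in pXEN cells than in pESCs (log2FC 1.05, adjusted p = 0.0351) and lower in pESCs than in nESCs (log2FC -1.61, adjusted p = 0.0127). JAK2 had between 2.44 and 4.53 FPKM in the 7 libraries and was called in no comparison. In FPKM, TYK2 was therefore above JAK1 and JAK2 in each library. The TYK2 interval overlaps ICAM-1 on the other strand.

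JAK3, the kinase of the common gamma chain of cytokine receptors, was present in pXEN cells and pESCs and nearly absent from nESCs. It had 36, 57 and 39 counts in the pXEN lines, 64 and 66 in pESCs and 0 and 1 in nESCs, that is 0.708, 0.960 and 0.687 FPKM, 0.983 and 0.949 FPKM, and 0 and 0.0166 FPKM. The pooled ratio of pXEN cells to nESCs was 96.8 (95% counting interval 17.1 to 3853, adjusted p = 0.000165), and that of pESCs to nESCs was 118 (20.7 to 4677, adjusted p = 0.000421). These rest on 1 nESC count. Without nESC 1 the ratios were 47.4 and 57.5, and without nESC 2 JAK3 was at least 16.4-fold and 20.01-fold higher. Counting intervals and floors cover counting error only. Between pXEN cells and pESCs JAK3 was not called (log2FC -0.29, SE 0.38, adjusted p = 0.572).

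Of the 5 transcription factors tested, 0 were higher and 2 lower in pXEN cells than in nESCs, 3 were higher and 0 lower than in pESCs, and 0 were higher and 3 lower in pESCs than in nESCs. Over all genes tested these shares were 28.3% and 26.2%, 23.9% and 24.4%, and 19.0% and 13.3%. IRF9, the DNA-binding subunit of the type I complex, had 4.64, 3.61 and 4.05 FPKM in the pXEN lines, 5.62 and 4.36 FPKM in nESCs and 1.74 and 1.54 FPKM in pESCs. It was 3.07-fold lower in pESCs than in nESCs (log2FC -1.62, SE 0.30, adjusted p = 0.00503) and 2.51-fold higher in pXEN cells than in pESCs (log2FC 1.33, SE 0.28, adjusted p = 0.00543). IRF1, an activator of class I genes, had 4.87, 6.89 and 4.10 FPKM in the pXEN lines, 11.8 and 8.57 FPKM in nESCs and 2.26 and 2.25 FPKM in pESCs. The pXEN libraries lay between the other groups without overlap. IRF1 was 4.55-fold lower in pESCs than in nESCs (log2FC -2.19, SE 0.31, adjusted p = 0.00147), and in pXEN cells it was 1.93-fold lower than in nESCs (log2FC -0.95, SE 0.26, adjusted p = 0.0155) and 2.36-fold higher than in pESCs (log2FC 1.24, SE 0.29, adjusted p = 0.00828).

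STAT2, the partner of IRF9, had 2.38, 5.32 and 3.07 FPKM in the pXEN lines, 11.5 and 14.2 FPKM in nESCs and 5.77 and 5.85 FPKM in pESCs. It was 3.57-fold lower in pXEN cells than in nESCs (log2FC -1.84, SE 0.30, adjusted p = 0.00138) and 2.23-fold lower in pESCs than in nESCs (log2FC -1.16, SE 0.33, adjusted p = 0.0320). The second call was lost without any 1 of the 4 ESC libraries (adjusted p from 0.0819 to 0.150). Against pESCs the log2FC in pXEN cells was -0.68 (SE 0.31, adjusted p = 0.106), and without pXEN 2, the pXEN library with the most STAT2, it was -1.08 (adjusted p = 0.00143). IRF3, which answers to sensors of viral nucleic acids, was the most expressed of the set, with 29.6, 24.0 and 31.9 FPKM in the pXEN lines, 23.9 and 22.0 FPKM in nESCs and 20.6 and 19.4 FPKM in pESCs. It was 1.43-fold higher in pXEN cells than in pESCs (log2FC 0.52, SE 0.15, adjusted p = 0.0203) and was not called against nESCs (log2FC 0.31, SE 0.15, adjusted p = 0.110). IRF2, which counteracts IRF1, lay between 3.93 and 7.09 FPKM and was called in no comparison. IRF7 and IRF8 had no count in any library.

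Of the sensors of viral RNA and their partners, TLR3 was higher and TRIM25 lower in pXEN cells than in each ESC type. EIF2AK2 was lower in pXEN cells than in pESCs. TLR3, the endosomal receptor of double-stranded RNA, had 1.32, 3.01 and 1.66 FPKM in the pXEN lines, 0.535 and 0.397 FPKM in nESCs and 0.882 and 0.688 FPKM in pESCs. It was 4.26-fold higher in pXEN cells than in nESCs (log2FC 2.09, SE 0.47, adjusted p = 0.00596) and 2.56-fold higher than in pESCs (log2FC 1.36, SE 0.44, adjusted p = 0.0345). The pXEN 2 library was the highest. Without it the log2FC was 1.66 (adjusted p = 0.00580) and 0.93 (adjusted p = 0.0620), and the call against pESCs was also lost without pESC 1 (0.104), pESC 2 (0.184) or nESC 1 (0.05, at the threshold and not below it).

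TRIM25, the ubiquitin ligase that activates RIG-I, had 0, 3 and 0 counts in the pXEN lines, 39 and 37 in nESCs and 9 and 13 in pESCs. That is 0, 0.246 and 0 FPKM, 3.03 and 2.98 FPKM, and 0.672 and 0.908 FPKM. The pooled ratio of nESCs to pXEN cells was 34.5 (95% counting interval 11.4 to 171, adjusted p = 0.00171), and that of pESCs to pXEN cells was 9.04 (2.71 to 47.2, adjusted p = 0.0283). Without pXEN 2 there was no count in pXEN cells, and TRIM25 was at least 10.5-fold higher in nESCs (adjusted p = 0.000238) and at least 2.74-fold higher in pESCs (adjusted p = 0.00271). EIF2AK2, the kinase PKR that stops translation on double-stranded RNA, had 1.35, 1.38 and 1.91 FPKM in the pXEN lines, 2.02 and 3.42 FPKM in nESCs and 8.95 and 12.3 FPKM in pESCs. The pESC libraries stood above all others. It was 3.88-fold higher in pESCs than in nESCs (log2FC 1.95, SE 0.33, adjusted p = 0.00340) and 6.81-fold lower in pXEN cells than in pESCs (log2FC -2.77, SE 0.30, adjusted p = 0.000200). Against nESCs it was not called in pXEN cells (log2FC -0.81, SE 0.31, adjusted p = 0.0557).

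MAVS, the mitochondrial adaptor of RIG-I and MDA5, had 9.96, 10.21 and 8.17 FPKM in the pXEN lines, 16.3 and 12.8 FPKM in nESCs and 8.20 and 9.30 FPKM in pESCs. It was lower than in nESCs both in pXEN cells (log2FC -0.63, SE 0.16, adjusted p = 0.0126) and in pESCs (log2FC -0.75, SE 0.18, adjusted p = 0.0168), and both calls were lost without nESC 1 (adjusted p = 0.112 and 0.117). IFIH1, which encodes MDA5, had between 1 and 20 counts in a library and was not called (adjusted p from 0.135 to 0.938). The row identified as RIG-I, no member by name, had between 35 and 82 counts and was not called either.

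The interferon-stimulated effectors changed in both directions. Of the 16 rows, 8 were tested. In pXEN cells 2 were higher and 3 lower than in nESCs, and 1 was higher and 3 lower than in pESCs. Over all genes tested, 28.3% were higher and 26.2% lower than in nESCs, and 23.9% and 24.4% than in pESCs. The members that rose were IFIT5 and IFIT2, and those that fell were OAS2, MX1 and SAMHD1. IFIT5, which binds single-stranded RNA, was the most expressed of the 58 members in pXEN cells, with 46.0, 56.4 and 42.8 FPKM. It had 16.7 and 11.6 FPKM in nESCs and 33.5 and 40.2 FPKM in pESCs. The nESC libraries were lowest. IFIT5 was 3.41-fold higher in pXEN cells (log2FC 1.77, SE 0.21, adjusted p = 0.000221) and 2.58-fold higher in pESCs (log2FC 1.37, SE 0.22, adjusted p = 0.00259) than in nESCs, and was not called between pXEN cells and pESCs (log2FC 0.40, SE 0.19, adjusted p = 0.122).

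IFIT2, a relative that binds AU-rich RNA, had 75, 53 and 84 counts in the pXEN lines, 1 and 0 in nESCs and 2 and 6 in pESCs. That is 2.22, 1.35 and 2.23 FPKM, 0.0241 and 0 FPKM, and 0.0463 and 0.130 FPKM. The pooled ratio of pXEN cells to nESCs was 156 (95% counting interval 27.6 to 6172, adjusted p = 0.000223). Against pESCs IFIT2 was 21.1-fold higher (log2FC 4.40, SE 0.62, adjusted p = 0.000757). Both calls held in every alternative run, the fit without pXEN 2 included. The ratio to nESCs was 79.4 without nESC 2 and at least 25.6 without nESC 1, and that to pESCs was 41.6 without pESC 2. The rows named IFIT2, IFIT3, IFIT1 and IFIT5 lie in this order between 110179712 and 110252240 of chromosome 14, all on the plus strand. The names of the inner pair are uncertain. By identifier the row named IFIT3 is IFIT1, and the row named IFIT1 has no symbol. The inner pair had few counts. IFIT3 had at most 1 count in a library, and IFIT1, a sensor of uncapped RNA, had 5, 21 and 0 counts in the pXEN lines, 1 and 0 in nESCs and none in pESCs. IFIT2 and IFIT5 were thus measured in pXEN 3 where the row named IFIT1 had no count.

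MX1, the dynamin-like GTPase that blocks influenza viruses, showed the reverse pattern. It had 2, 20 and 0 counts in the pXEN lines, 37 and 69 in nESCs and 244 and 279 in pESCs, which is 0.0585, 0.501 and 0 FPKM, 0.878 and 1.70 FPKM, and 5.57 and 5.96 FPKM. The 3 groups did not overlap. MX1 was 29.3-fold lower in pXEN cells than in pESCs (log2FC -4.87, SE 0.86, adjusted p = 0.00238), a call that held in every alternative run, and 6.63-fold lower than in nESCs (log2FC -2.73, SE 0.89, adjusted p = 0.0311). The sizes depended on pXEN 2. Without it, 2 counts were left in pXEN cells, and the pooled ratio was 208 for pESCs (95% counting interval 57.4 to 1725) and 46.7 for nESCs (12.6 to 391). Without pXEN 3 the log2FC was -4.29 against pESCs and -2.14 against nESCs. The call against nESCs was lost without nESC 2 (adjusted p = 0.165), pXEN 1 (0.0798), pESC 2 (0.0628), pESC 1 (0.0627) or nESC 1 (0.0521), with DESeq2 (0.111) and in a fit of only these groups (0.0685), and without pXEN 2 its adjusted p was 0.000239. Genes on chromosome 13, where MX1 lies, had a median log2FC of 0.46 against nESCs and 0.40 against pESCs, the opposite sign. MX2, its neighbour, had 5 and 3 counts in pESCs and none elsewhere.

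SAMHD1, which depletes nucleotides needed by retroviruses, had 0.424, 0.473 and 0.478 FPKM in the pXEN lines, 1.58 and 1.15 FPKM in nESCs and 1.71 and 1.20 FPKM in pESCs. It was 2.98-fold lower than in nESCs (log2FC -1.58, SE 0.30, adjusted p = 0.00262) and 3.14-fold lower than in pESCs (log2FC -1.65, SE 0.30, adjusted p = 0.00248). Both calls held in every alternative run. OAS2, an enzyme that makes oligoadenylates on double-stranded RNA, had 4.26, 2.37 and 3.28 FPKM in the pXEN lines, 6.43 and 5.51 FPKM in nESCs and 6.38 and 5.74 FPKM in pESCs. It was 1.82-fold lower than in nESCs (log2FC -0.86, SE 0.25, adjusted p = 0.0188) and 1.83-fold lower than in pESCs (log2FC -0.87, SE 0.25, adjusted p = 0.0207). Its neighbour OAS1 had at most 4 counts in a library.

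The remaining effectors were not called or not tested. ISG15, the ubiquitin-like modifier, had 6.02, 6.54 and 2.63 FPKM in the pXEN lines, 2.62 and 3.09 FPKM in nESCs and 4.24 and 3.86 FPKM in pESCs, and the pXEN lines overlapped both ESC types (adjusted p from 0.171 to 0.577). The guanylate-binding proteins GBP2, at 2.23 to 3.71 FPKM, and GBP1, at 0.0617 to 0.334 FPKM, were called in no comparison. CXCL10, the chemokine that attracts T cells, had 12 counts in pXEN 2 and none in the other 6 libraries. IFITM1 had 3 and 8 counts in pESCs and none elsewhere. PARP14 had at most 2 counts in a library, and ISG20 none.

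**Figure D3:**
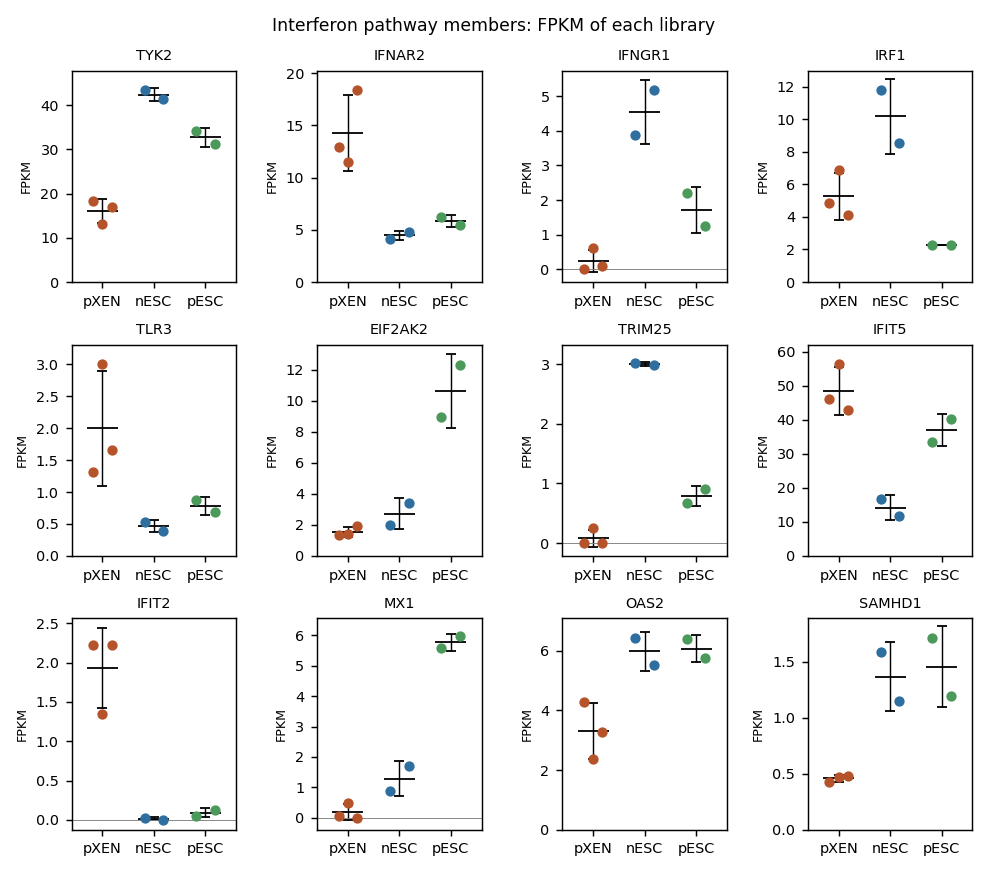
FPKM of 12 members of the interferon pathway. Points are libraries, horizontal lines are group means and bars are ± 1 SD (n = 3 pXEN, 2 nESC and 2 pESC lines). IFNAR2, TLR3 and IFIT2 are highest in the pXEN libraries, TYK2, IFNGR1, TRIM25, MX1, OAS2 and SAMHD1 are lowest there, and EIF2AK2 and MX1 are highest in the pESC libraries.

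**Figure D4:**
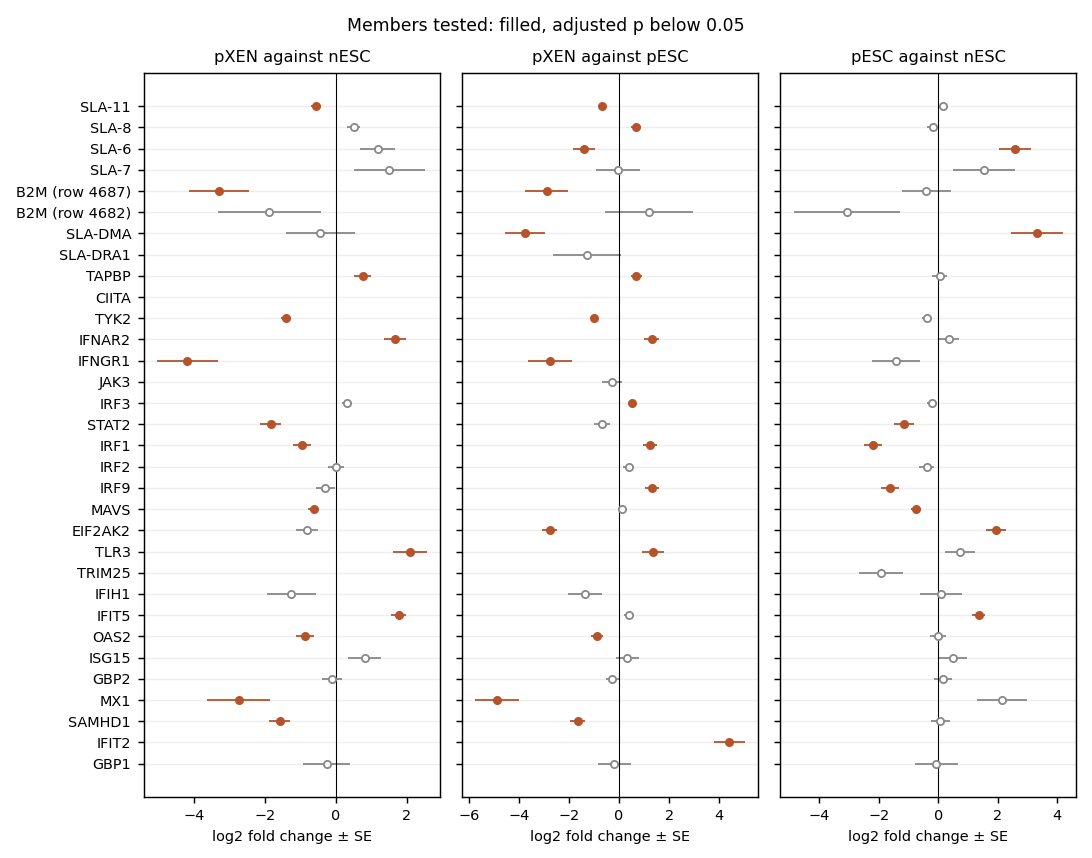
The log2 fold change ± SE of the tested members in each comparison, filled where the adjusted p was below 0.05. Members with 3 or fewer counts summed over a group compared are not drawn, which leaves 27, 30 and 28 of the 32. Below-zero values in the first and second panels are lower in pXEN cells.

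Among other genes of antigen presentation, the regulator RFX5, which binds class I and class II promoters, showed the largest difference of the 13 tested. It had 3.34, 5.02 and 4.11 FPKM in the pXEN lines, 40.9 and 36.6 FPKM in nESCs and 11.0 and 11.2 FPKM in pESCs. Its log2FC was -3.22 (SE 0.17, adjusted p = 4e-06) in pXEN cells against nESCs, -1.40 (SE 0.17, adjusted p = 0.000336) against pESCs and -1.82 (SE 0.18, adjusted p = 0.000312) in pESCs against nESCs. The 3 groups were thus in the order nESC, pESC, pXEN. In this list 5 genes were higher and 4 lower in pXEN cells than in nESCs (median log2FC 0.08), 2 were higher and 4 lower than in pESCs (-0.22), and 3 were higher and 3 lower in pESCs than in nESCs (-0.16). The partner RFXAP was lower than in nESCs in pXEN cells (log2FC -1.15) and in pESCs (-0.93). FCGRT, the neonatal Fc receptor whose chain also pairs with B2M, was higher in pXEN cells than in nESCs (log2FC 1.93) and pESCs (1.52), as was MR1, a presenter of vitamin metabolites, against nESCs (2.596). The chaperone HSPA5 (2.31) and CALR (1.55), which folds heavy chains, were higher in pESCs than in nESCs. Both lay between the ESC types in pXEN cells, higher than in nESCs (1.59 for HSPA5 and 1.20 for CALR) and lower than in pESCs (-0.73 and -0.35). The proteasome activator PSME2 was higher in pXEN cells than in pESCs (0.75). The catalytic subunits PSMB6 and PSMB7 of the constitutive proteasome, at 134 to 180 FPKM in each library, were called in no comparison.

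Among other interferon signalling genes, of which 14 were tested, the negative regulators SOCS1 and PTPN6 were higher in pXEN cells. SOCS1, which blocks JAK kinases, had 109, 116 and 79.4 FPKM in the pXEN lines, 2.87 and 3.19 FPKM in nESCs and 21.3 and 17.8 FPKM in pESCs. Its log2FC in pXEN cells was 5.06 (SE 0.25, adjusted p = 3.2e-06) against nESCs and 2.38 (SE 0.20, adjusted p = 6.27e-05) against pESCs, and it was 2.67 between pESCs and nESCs. The phosphatase PTPN6 had 188, 222 and 201 counts in the pXEN lines, 9 and 5 in nESCs and 2 and 1 in pESCs, with a log2FC of 4.98 against nESCs and a pooled ratio to pESCs of 165 (95% counting interval 56.3 to 804). PTPN6 was lower in pESCs than in nESCs, with a pooled ratio of nESCs to pESCs of 5.16 (1.44 to 28.0, adjusted p = 0.0161). The other regulators of the list, SOCS3, PTPN2 and PIAS4, were called in no comparison, and PTPN11 was lower than in nESCs (log2FC -0.28).

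The signal transducer STAT3 was lower than in nESCs in pXEN cells (log2FC -1.40) and in pESCs (-1.67), and the ISG15-conjugating enzyme UBE2L6 was lower in pXEN cells than in nESCs (-0.84). In this list 3 genes were higher and 4 lower in pXEN cells than in nESCs, 4 were higher and 0 lower than in pESCs, and 2 were higher and 4 lower in pESCs than in nESCs. The medians were -0.06, 0.35 and -0.29.

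Of 29 rows of interferon genes, the ligands of the pathway, 3 had enough counts to be tested. IFNE, an interferon of epithelia that is expressed without infection, had 27, 29 and 19 counts in the pXEN lines and 0 in each of the 4 ESC libraries, which is at least 9.02-fold higher than in nESCs (adjusted p = 0.00150) and at least 9.87-fold higher than in pESCs (adjusted p = 0.00167). IFN-ALPHA-11 had 9, 4 and 16 counts in the pXEN lines, 35 and 28 in nESCs and 4 and 4 in pESCs, and was lower than in nESCs in pXEN cells (log2FC -1.55, adjusted p = 0.0480) and in pESCs (log2FC -3.08, adjusted p = 0.0129). The interferon alpha rows are near-identical copies, so their counts are uncertain. IFNG had no count.

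Among other sensors and relays, 11 of 21 rows were tested, with 6 higher and 2 lower in pXEN cells than in nESCs, 5 higher and 2 lower than in pESCs, and 3 higher and 1 lower in pESCs than in nESCs (medians 0.35, 0.57 and 0.19). For this and the other pathway lists, the shares over all genes tested were 28.3% higher and 26.2% lower in pXEN cells than in nESCs, 23.9% and 24.4% against pESCs, and 19.0% and 13.3% in pESCs against nESCs. TICAM1, the adaptor TRIF through which TLR3 signals, had 173, 164 and 207 counts in the pXEN lines, 1 and 0 in nESCs and 32 and 27 in pESCs. Its pooled ratio of pXEN cells to nESCs was 399 (95% counting interval 71.3 to 15792, adjusted p = 1.13e-05), that of pESCs to nESCs was 53.3 (9.21 to 2142, adjusted p = 0.000627), and its log2FC against pESCs was 2.90 (SE 0.33, adjusted p = 0.000248). TLR3 and its adaptor were thus both higher in pXEN cells than in each ESC type. The adaptor MYD88, in the row of its 2 that was tested, was also higher in pXEN cells (log2FC 2.40 and 2.44), while NFKB1 was lower (-1.52 and -1.24) and RELA was lower than in nESCs (-0.64) and higher than in pESCs (0.57). MB21D1, which encodes the DNA sensor cGAS, was higher than in nESCs in pESCs (3.91) and in pXEN cells (1.98) and lower in pXEN cells than in pESCs (-1.93), and RELA was lower in pESCs than in nESCs (-1.21). TMEM173, which encodes STING, had no count in any library.

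Among other interferon-stimulated genes, 17 of 29 rows were tested, and the calls split in both directions. In pXEN cells 5 were higher and 5 lower than in nESCs, and 7 were higher and 6 lower than in pESCs, while 4 were higher and 2 lower in pESCs than in nESCs (medians 0.01, 0.07 and -0.02). NMI, which binds STAT proteins, was lower in pXEN cells against nESCs (log2FC -4.63, SE 0.73, adjusted p = 0.00104) and pESCs (-3.15, SE 0.75, adjusted p = 0.00913), with 0, 7 and 2 counts in the pXEN lines against 95 and 72 and 36 and 30. IFI44L, with 1, 31 and 5 counts in the pXEN lines, was lower than in nESCs (-2.86) and IFI44 lower than in pESCs (-2.59) and nESCs (adjusted p = 0.0348). IFI30, a lysosomal thiol reductase, was higher than in nESCs in pXEN cells (2.94) and in pESCs (3.56). TRIM21, a cytosolic antibody receptor, was higher in pXEN cells than in pESCs (3.25) and lower in pESCs than in nESCs (-3.25). The RNA-editing enzyme ADAR was lower in pESCs than in nESCs (-1.26), and TNFSF10, a death ligand, was higher in pESCs than in nESCs (3.70).

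Low counts of several members in pXEN cells came mostly from pXEN 2. Of the 33 members with 10 or more counts over the pXEN lines, 9 (27.3%) had over 75% of their pXEN CPM, counts relative to the library's TMM-scaled total, in pXEN 2, and 0 in pXEN 1 or pXEN 3. Over all 17408 genes with 10 or more pXEN counts, 369 (2.12%) did, and over the 3405 with 10 to 50 counts, 248 (7.28%) did. The 9 rows were SLA-1, SLA-5, both B2M rows, SLA-DRA1, IFNGR1, MX1, IFIT1 and CXCL10. They had 11 to 27 pXEN counts each and at most 5 outside pXEN 2, so they reached 10 counts only through that library, and the mark of 75% was set after the data were seen. Their number is therefore a description and no evidence about the members. The same library held the fibroblast marker and chromosome Y counts given above. Of the myeloid genes, it had the most ITGAM (14, 51 and 10 counts in pXEN 1, 2 and 3) of the pXEN lines. It also had the most CD14 (3, 15 and 8) and LYZ (1, 6 and 0) and the least CD68 (25, 14 and 25). The row named CD163 had none, but by identifier it is SCART1, so it may not measure CD163. The T cell gene CD3E had 1, 5 and 0 counts, and PTPRC, a marker of all leukocytes, had 0 in each. The part of other cells in these counts was not tested. The share of pXEN 2 in the members with over 100 pXEN counts lay between 23.4% for IFIT2 and 50.5% for TLR3.

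**Figure D5:**
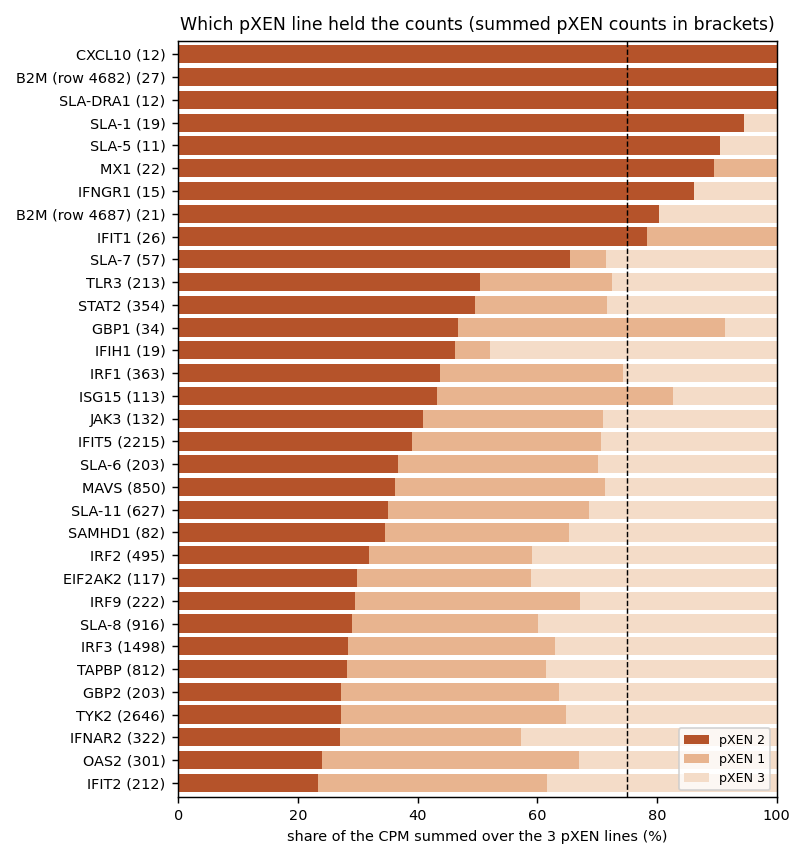
Share of each pXEN line in the CPM summed over the 3 pXEN lines, for the 33 members with 10 or more pXEN counts, ordered by the share of pXEN 2. Numbers in brackets are summed pXEN counts, and the dashed line marks 75%. The 9 rows past the line have 11 to 27 counts.

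The SLA rows span 24683605 to 29504539 of chromosome 7, a stretch that lists 227 rows. Of the 206 rows in it that are no members, 75 were tested. These 206 include the TAP, LMP2 and DMB rows described above, which are no members by name but belong to antigen presentation. The DMB row and all TAP rows that were tested were among those lower in pXEN cells than in pESCs. In pXEN cells 18 (24.0%) were higher and 21 (28.0%) lower than in nESCs, and 16 (21.3%) were higher and 25 (33.3%) lower than in pESCs. Between the ESC types 17 (22.7%) were higher and 10 (13.3%) lower in pESCs. With the TAP and DMB rows included, the share lower in pXEN cells than in pESCs was above the 24.4% of all genes. The share without them was not computed. The other shares were within 5 percentage points of those of all genes. The medians of these neighbours, -0.04, 0.06 and -0.05 on the log2 scale, were near those of all genes.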

How the data were processed

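Total RNA of the 7 cell lines was depleted of rRNA and sequenced from directional libraries. The deposited gene tables give raw counts per gene and FPKM values, which the authors computed from the same counts by gene length and a total per library. Per the labels, the processing used HISAT2 2.0.5, featureCounts 1.5.0-p3, edgeR 3.22.5 and Sscrofa10.2. How reads were assigned to a strand or to near-identical copies is not given in the sources used here.

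The members and the lists were chosen with earlier results of these data known. Members were found by gene name. Of the absent names, 6 were found by Ensembl identifier in a table of gene names. Values in every library are given for the 2 members with the highest mean FPKM in each role group, for members called in the same direction in pXEN cells against both ESC types, and for members called between the ESC types with an absolute log2FC of at least 1. Of each other list, at most 2 called genes per direction and comparison are named as a rule, those with the largest change. Some genes that this rule names are not reported here. JAK1, JAK2, SOCS3, PTPN2, PIAS4, PTPN11, PSMB6, PSMB7, IFNG, TMEM173, ITGAM, CD68, PTPRC, TEK, PECAM1, KDR, LUM, DCN, POSTN, FAP and the TAP, DMB, LMP2, RIG-I and TMP-SLA rows were added after their values were seen.

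Counts were fitted with edgeR 4.0.16 (R 4.3.3), with TMM scaling, filterByExpr and the quasi-likelihood test, in 1 model of 3 groups without covariates, and p values were adjusted by Benjamini and Hochberg over 17447 genes. The adjusted p values measure the spread between lines, of which each group has 2 or 3. The biological coefficient of variation was 0.223. At a floor of 3 counts the limit was 0.224 to 0.307 CPM. Folds against a group at 0 are lower bounds at that floor per library, and ratios against a group with 1 to 3 counts are pooled over libraries with an exact binomial interval of 95%. Alternatives were upper-quartile scaling, no filter, a minimum mean of 10 counts, DESeq2 1.42.0, limma 3.58.1 on log2(FPKM + 0.1) and log2(FPKM + 1), a fit of only the groups compared, a replicate block, each library left out and, added later, rows of the same gene summed. Promoter motifs and sequences were not analysed here.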

Additional observations from a re-analysis of the deposited data

How the results depend on the processing

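Of the 47 calls of single members, 23 held in every alternative, and no called value changed direction. Over all members and alternatives, 1394 values kept their side of the threshold, 91 lost a call and 25 gained one. The sign changed in 39 values of members that were not called (lowest adjusted p 0.477). Upper-quartile scaling moved the median log2FC of all genes to -0.16 (pXEN against nESC), -0.09 (pXEN against pESC) and -0.06 (pESC against nESC). Under it TAPBP lost both calls (adjusted p = 0.0664 and 0.0618).

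With the replicate block, 4 members were higher in pXEN cells than in pESCs in place of 8, and 8 lower in place of 12. Over all genes tested, same-numbered lines did not deviate together (r of their deviations from -0.00892 to 0.0442). This r cannot show whether lines share an origin or their handling. Fitting only the groups compared, 7 members were lower in pESCs than in nESCs in place of 4, and TAPBP (adjusted p = 0.0562) and IFNGR1 (0.0554) lost their calls against pESCs. With limma on log2(FPKM + 0.1), SLA-6 (0.0585) and TLR3 (0.0508) lost theirs against pESCs and STAT2 (0.0550) between the ESC types. Calls gained were SLA-6 against nESCs with DESeq2 (0.0431) and with limma on log2(FPKM + 0.1) (0.0497) or log2(FPKM + 1) (0.0411), and EIF2AK2 against nESCs with upper-quartile scaling (0.0277) and the block (0.0359). Between the ESC types they were IFNGR1 (0.0328), TRIM25 (0.00224) and MX1 (0.00406) with limma on log2(FPKM + 1), MX1 with the block (0.0208), and TYK2 (0.0110), IFNGR1 (0.0185), TRIM25 (0.00971) and MX1 (0.00171) in the fit of only these groups.

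Leaving out 1 library at a time, the members called higher in pXEN cells than in nESCs numbered 5 to 8 and those called lower 7 to 12. Against pESCs they numbered 3 to 8 and 5 to 13, and between the ESC types 4 to 7 were higher and 2 to 7 lower in pESCs. Without nESC 1, 7 were lower in pXEN cells than in nESCs and 2 lower in pESCs than in nESCs. Against pESCs, 5 were higher and 7 lower without pXEN 3, 4 and 6 without pESC 1, and 3 and 5 without pESC 2, and without either pESC line 2 were lower in pESCs than in nESCs. Without pXEN 2 that count was 7. Fewer libraries went into each of these fits. The shares of all genes called under each alternative, the block included, are not given here. These counts therefore say nothing particular to the members.

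Calls lost without 1 library and not given above were, against nESCs, SLA-11 without nESC 2 (adjusted p = 0.0952), and IRF1 (0.134) and OAS2 (0.106) without nESC 1. Against pESCs they were SLA-11 without pESC 2 (0.0506), SLA-8 without pXEN 3 (0.0591) or pESC 2 (0.173), the first B2M row without pXEN 3 (0.0687), pESC 1 (0.0628) or pESC 2 (0.122), CIITA without pESC 1 (0.0622), IRF1 without pESC 1 (0.0569) or pESC 2 (0.0599), OAS2 without pXEN 3 (0.0538), pESC 1 (0.116) or pESC 2 (0.0691), IRF3 without any pXEN or pESC library but pXEN 2 (0.0548 to 0.136), and TRIM25 without any library but pXEN 2 (0.0590 to 0.135). The first B2M row lost its call against nESCs without nESC 1 (0.0752), and MAVS between the ESC types without pESC 1 (0.122) or pESC 2 (0.0668). Calls gained without pXEN 2 and not given above were SLA-8 (0.0209) and IRF3 (0.0127) against nESCs and, between the ESC types, TYK2 (0.00749), IFNGR1 (0.0314), TRIM25 (0.0146) and MX1 (0.00208). MX1 was also gained there without pXEN 3 (0.0338). Against nESCs, calls were gained for SLA-6 without nESC 2 (0.00184), ISG15 without pXEN 3 (0.0404) and EIF2AK2 without pXEN 3 (0.0482) or nESC 1 (0.0267). Depth limits the rows under 3 counts, where an absent call says nothing of absence.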
